A study of Mus musculus with 11 samples.

Results

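Glutamate receptor genes and the genes of their auxiliary subunits were examined in the hippocampus, as a set of 35 named genes among the 38293 genes in the count tables. The members were chosen by name, though with earlier results of these data known. They are 4 AMPA receptor subunits, 5 kainate receptor subunits, 7 NMDA receptor subunits, 1 delta receptor, 7 metabotropic receptors and 11 auxiliary subunits. All 35 were matched by Ensembl identifier to their symbols in the GENCODE annotation of GRCm38. A total of at least 10 counts over all mice, the minimum for testing, was reached by 32 of them, as by 20589 genes in all. The exceptions were Cacng7 and Cacng8, which are listed at 0 in every mouse, and Grm6, a receptor of retinal ON bipolar cells, with 1 count in all.

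RNA of whole hippocampus came from 11 wildtype F1 mice of the cross 129S6/SvEv x C57BL/6J, aged 14 weeks. The 6 CD F1 mice (3 males and 3 females) were born to dams on a diet with 2.3 mg folic acid (FA) per kg, and the 5 FD F1 mice (2 males and 3 females) to dams that received 40 mg FA per kg until mating. All dams received the control diet from then on, so that the groups differ in the diet of the mother before conception and the mice themselves were not treated. Nothing in the labels says which of these mice shared a litter, so that p-values measure the spread between mice, some of which may be littermates.

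Fast excitatory transmission in the hippocampus runs through AMPA receptors, which are tetramers of GluA subunits, while NMDA receptors combine GluN1 with GluN2 or GluN3 subunits and admit calcium when glutamate binding and depolarization coincide. Kainate receptors shape transmission on both sides of the synapse, and metabotropic receptors act through G proteins. TARPs (the Cacng genes), cornichons, CKAMP proteins and Neto proteins bind the channels and set their trafficking and gating. In bulk RNA of a whole structure, fewer cells of a type and less RNA per cell cannot be told apart.

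Total counts on genes ranged from 11737554 to 44447006 per mouse, with a median of 23493609 in CD and 21148672 in FD mice. In these libraries 3 counts correspond to between 0.0675 and 0.256 CPM, the unit of counts scaled to a common library size. Markers of neurons and of the hippocampal fields were present in all mice: the summed level of 3 CA1 pyramidal cell markers was between 303.1 and 420.4 CPM, and that of 5 dentate granule cell markers between 263.4 and 328.2 CPM. For the choroid plexus list, a tissue that lies against the hippocampus, 6 of 6 markers were tested and the sum ranged from 34.2 to 86.2 CPM in CD and from 29.9 to 42.8 CPM in FD mice. None of the 70 marker genes on the 16 cell type lists differed between the diets at an adjusted p under 0.1.

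The libraries of 3 mice stood apart from the others. Entries listed as aligned to several places, which are not in the gene counts, made up 16.0%, 15.6% and 15.1% of all entries in CD female 1, CD female 3 and FD female 3, and between 13.7% and 14.5% in the 8 other mice. The division at 15% was chosen after the values of Grin2b were seen. All 3 of these mice are females, and 2 of them are CD mice, so this division is not independent of sex or diet. The summed level of 4 CA2 pyramidal cell markers was between 241.1 and 251.6 CPM in these 3 mice and between 180.0 and 204.2 CPM in the others. That of 4 endothelial markers was between 117.7 and 139.8 CPM against 145.6 to 178.9 CPM. The sums of all other cell type lists overlapped between the 3 mice and the others. Of all genes tested, 7.78% were lower and 8.28% higher in each of these 3 mice than in any other mouse. The part of these differences in the results below was not tested.

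Levels were compared between genes per length, as CPM per kb of merged exons, and the members covered nearly the whole range of the hippocampal transcriptome. Gria1, which encodes the AMPA receptor subunit GluA1, was the member with the highest level at 215.4 CPM per kb ± 7.93 (SD, n = 11), above 99.5% of the genes tested. Gria2, whose RNA-edited product keeps AMPA receptors impermeable to calcium, had 81.9 ± 7.99 CPM per kb, Gria3 31.2 ± 1.83 and Gria4 13.1 ± 0.653. Gria1 thus made up 63.1% of the summed AMPA receptor level per kb (60.2% to 66.3% in single mice), Gria2 made up 23.9%, and the order of the 4 genes was the same in all mice.

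Grik5, which encodes a subunit that forms kainate receptors only together with others, held 57.0% of the kainate receptor sum with 37.6 ± 4.13 CPM per kb. Grik4 followed with 11.7 ± 0.578, Grik3 with 7.62 ± 0.985, Grik2 with 6.52 ± 0.488 and Grik1 with 2.27 ± 0.156 CPM per kb. The ranges of Grik3 and Grik2 over the mice overlapped, while the 3 others did not overlap with their neighbours in this order. Within a mouse, Grik3 was above Grik2 in 10 mice and below it in 1.

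Among NMDA receptor genes, Grin1, the obligatory subunit, reached 32.8 ± 2.62 CPM per kb (57.1% of the sum). Grin2c had 8.34 ± 0.729, Grin3a 5.76 ± 0.534, Grin2b 5.74 ± 2.39, Grin2a 2.59 ± 0.747 and Grin2d 2.24 ± 0.237 CPM per kb. This order of the means did not hold in every mouse. Grin2b was above Grin3a, and Grin2a above Grin2d, in each of 8 mice and below in the 3 whose libraries stood apart. Over the 8 other libraries the mean was 8.30 CPM per kb for Grin2c, 7.06 for Grin2b, 5.93 for Grin3a, 3.01 for Grin2a and 2.19 for Grin2d. The share of Grin2b in the NMDA receptor sum ranged from 3.10% to 14.2% between mice. Grin3b stood lowest of all members tested, at 0.0611 ± 0.0356 CPM per kb and between 1 and 7 counts per mouse; 32.1% of its merged exon bases are also exons of Tmem259 on the opposite strand, and the sources used here do not say whether reads were counted by strand.

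Grm5, the group I metabotropic receptor of the set, made up 48.0% of the metabotropic sum with 37.4 ± 3.13 CPM per kb. The group II receptors Grm3 and Grm2 had 16.3 ± 1.13 and 9.73 ± 1.41 CPM per kb, the group III receptor Grm7 had 12.02 ± 0.743, and the other group III receptors Grm4 and Grm8 had 1.49 ± 0.318 and 0.878 ± 0.197. The delta receptor gene Grid1 had 15.6 CPM per kb. On this length, the receptors with a level above 30 CPM per kb were Gria1, Gria2, Gria3, Grin1, Grik5 and Grm5.

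Of the auxiliary subunits, the cornichon gene Cnih2 stood at 202.0 ± 25.4 CPM per kb, above 99.5% of the genes tested and next to Gria1 among the members by its mean. It was above Gria1 in 4 of 11 mice, which include the 3 libraries that stood apart. Cnih3 had 29.0 ± 2.69, Neto1 19.6 ± 1.73, Cacng3 18.6 ± 1.66 and Cacng2 (stargazin) 13.2 ± 0.815 CPM per kb. Neto2 (11.8), Cacng4 (6.95), Cacng5 (3.56) and the CKAMP gene Shisa9 (3.19) followed on the same scale.

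Some of these orders rest on the length used. Per kb of the longest protein-coding transcript, Grin1 rose to 74.3 and Gria3 to 59.2 CPM per kb, and Grin1 then stood above Grik5 (51.6) and Grm5 (47.6) in all 11 mice, where per kb of merged exons it was below Grik5 in all of them. By their means, Grik2 (9.16) then stood above Grik3 (7.62), Grin3a (9.44) above Grin2c (8.58) and Grin2b (5.93), Grm7 (16.9) above Grm3 (16.3) and Grm8 (2.25) above Grm4 (1.93). Gria1 (234.7), Cnih2 (205.9) and Gria2 (122.8) remained the members with the highest means. The place of Grin2c above Grin2b and Grin2a rests on division by length. In CPM without length, the median over the mice was 160.9 for Grin2b, 51.2 for Grin2a and 41.5 for Grin2c.

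**Figure D1:**
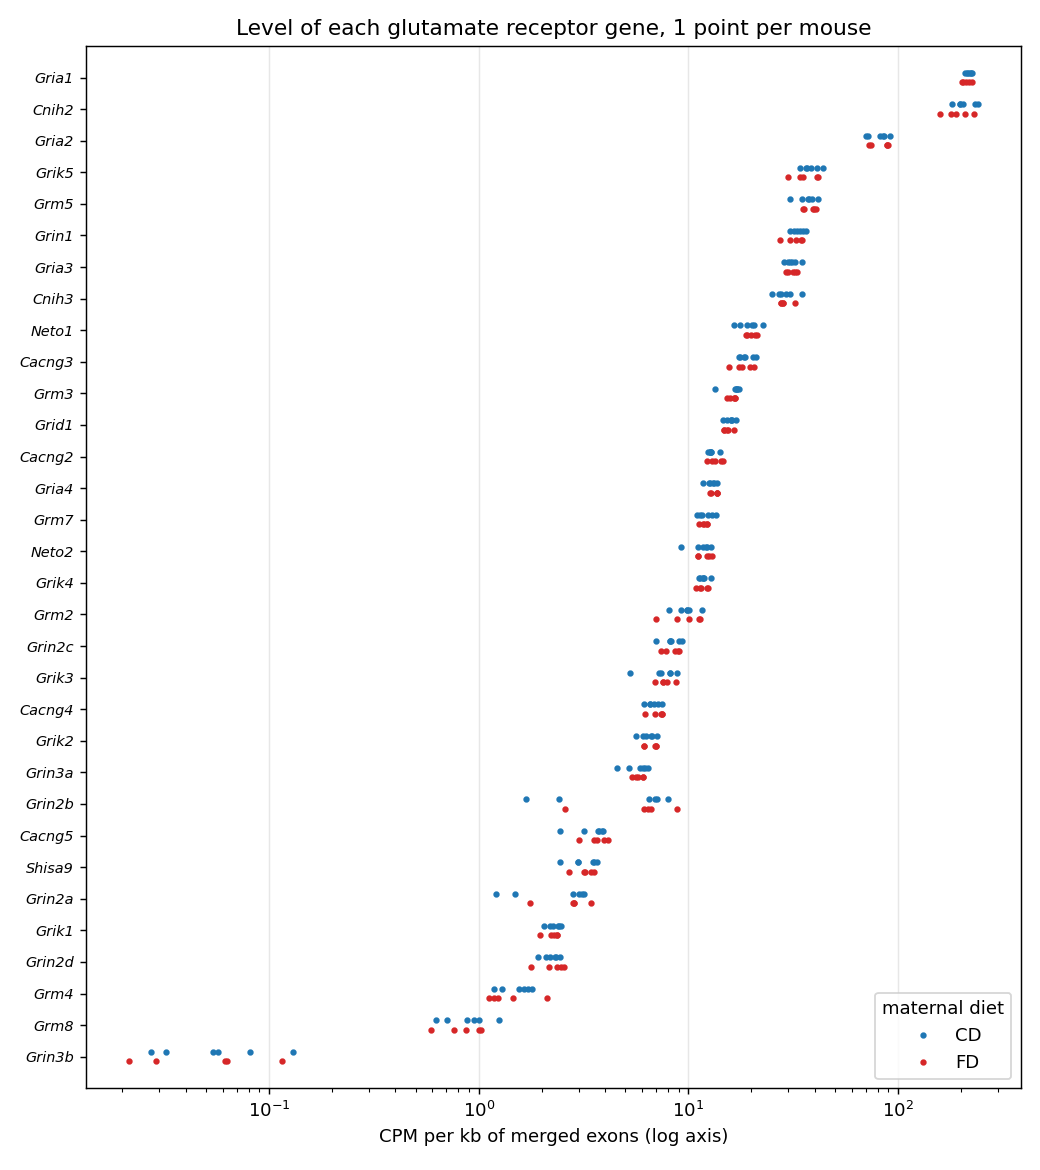
Level of the 32 members tested, in CPM per kb of merged exons on a log axis, with 1 point for each of 6 CD (blue) and 5 FD (red) mice and genes in the order of their mean. Gria1 and Cnih2 stand highest at 215.4 and 202.0 CPM per kb, Grin3b lowest at 0.0611, and the points of the diets overlap in each gene, and Grin2b and Grin2a each have 3 mice apart from the rest.

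Cacng8 encodes a TARP known to be abundant in the hippocampus, and it was listed at 0 in all 11 mice, as was Cacng7, out of 257220491 counts in all. Both genes lie next to each other on chromosome 7 of GRCm38, Cacng7 at positions 3332955 to 3368221 and Cacng8 at positions 3390683 to 3415648. The next genes at higher positions were at 0 or low, with 0 counts over all mice for Cacng6, 25 for Tarm1 and 231 for Oscar. From Ndufa3 at position 3617373 onward, the 9 genes up to Rps9 had between 711 and 31311 counts each. Of the 50-base windows of Cacng7 transcripts, 0 of 2389 also occur in a transcript of another annotated gene, and of those of Cacng8 42 of 2295 (1.83%). The genome outside annotated transcripts was not searched. Over all protein-coding genes in the tables, 3301 of 21173 (15.6%) were at 0 in every mouse. These zeros are therefore given as listed, and the cause was not tested.

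The members that varied most between mice were NMDA receptor subunits. Grin2b (chromosome 6, positions 135713233 to 136173511) encodes the GluN2B subunit, which predominates early in development and gives slow currents. In CD mice it ranged from 41.9 to 199.1 CPM with a median of 166.8, and in FD mice it was 152.2, 164.3 and 64.2 CPM in females 1, 2 and 3 and 218.8 and 159.5 CPM in males 1 and 2. The low values were those of the 3 libraries that stood apart, with 60.1 CPM in CD female 1, 41.9 in CD female 3 and 64.2 in FD female 3, while the 8 other mice were between 152.2 and 218.8 CPM.

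Grin2a (chromosome 16, positions 9567898 to 9995560) encodes the GluN2A subunit of the mature synapse, and the same 3 mice were lowest. They had 26.6, 21.6 and 31.4 CPM, against 50.4 to 61.4 CPM in the 8 others. On the log2 scale, the mean of the 3 libraries was below that of the 8 by 1.68 for Grin2b and by 1.04 for Grin2a. Ranked from the lowest difference upward, these were the 6th and the 26th of 14298 genes whose mean reached 1 CPM and that have an annotated length. Because the division was chosen after the values of Grin2b were seen, these ranks are a description only. With females alone the difference was -1.58 for Grin2b and -0.98 for Grin2a. Gria1 differed by 0.0087 and Grin1 by 0.13 in the same comparison of all mice.

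After these, the metabotropic receptors Grm8, Grm4 and Grm2 varied most between mice beyond counting error. Grm8 was 6.19 to 12.4 CPM in CD mice (median 9.06), and 10.2, 8.60 and 5.84 CPM in FD females and 7.52 and 9.90 CPM in FD males. Grm4 was 7.09 to 10.8 CPM in CD mice (median 9.55), and 12.7, 7.08 and 8.74 CPM in FD females and 6.71 and 7.42 CPM in FD males. The diets overlapped in both genes, and the lowest Grm8 values of each diet were those of CD female 3 and FD female 3, while Grm4 in the 3 libraries lay inside the range of the others.

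**Figure D2:**
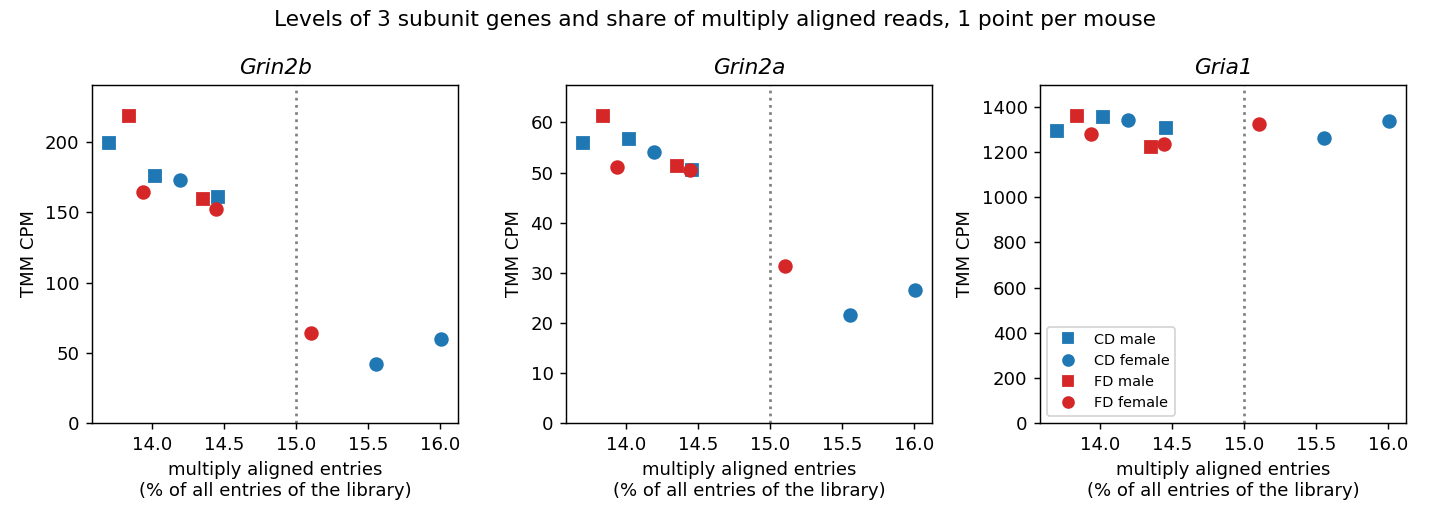
TMM-normalized CPM of Grin2b, Grin2a and Gria1 (from 0) against the share of multiply aligned entries in percent, with 1 point per mouse, squares for males and circles for females, CD in blue and FD in red, and a dotted line at 15%. The 3 libraries right of the line hold the lowest Grin2b (41.9 to 64.2 CPM) and Grin2a values (21.6 to 31.4 CPM), while Gria1 in them (1261 to 1337 CPM) lies inside the range of the others.

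Of the 32 members, 4 were lower in each of the 3 libraries than in any other mouse, namely Grin2b, Grin2a, Gria3 and Grm5, which compares with 7.78% of all genes tested. Cnih2 alone was higher in each of them than in any other mouse, beside 8.28% of all genes. Since the division was made after seeing Grin2b, these counts are a description. The members' differences followed gene length. Across the 31 members whose mean reached 1 CPM, the difference between the library classes correlated with the log2 of merged exon length at r = -0.73 and rho = -0.74. Across all 14298 genes it did so at r = -0.39 and rho = -0.49, all points coming from the same 11 libraries. These correlations rest on the same division, with Grin2b and Grin2a among the members, and are a description as well.

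Cnih2, with 1369 bp of merged exons the shortest member, was higher by 0.32 on the log2 scale, and the 6 members longer than 10000 bp were all lower, with a median of -0.23. The medians of all genes in these length classes were 0.17 for up to 2000 bp and -0.18 for over 10000 bp. Grin2b (24842 bp) and Grin2a (17933 bp) were the longest members, and their differences were several times the median of their length class. The part of transcript length, RNA quality or sex in these differences was not tested.

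**Figure D3:**
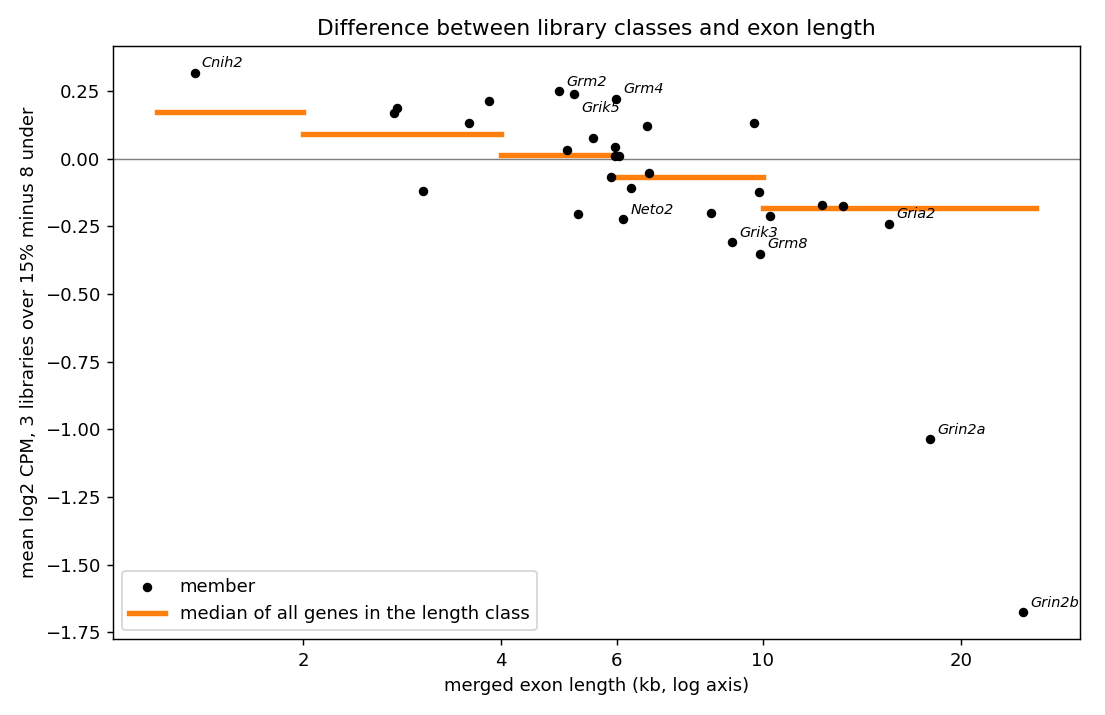
Mean log2 CPM in the 3 libraries over 15% minus that in the 8 others, against merged exon length in kb on a log axis, with 1 black point per member (31 whose mean reached 1 CPM) and orange lines for the median of all genes in each length class. The medians fall from 0.17 to -0.18, and Grin2a (-1.04) and Grin2b (-1.68) lie far below the line of their class.

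FD and CD F1 mice were compared to ask whether maternal FA before conception altered the expression of these genes in the adult offspring. None of the 32 members differed at an adjusted p under 0.1 (edgeR quasi-likelihood test, adjusted p = 1 for each), where 14 genes or 0.068% of all genes tested did. At an unadjusted p under 0.05 the count was 0 of 32 members beside 2.59% of all genes, with 0.229 as the smallest p of a member. DESeq2 also called 0 members at either threshold. In 0 of 32 members were all FD mice above or all below the CD mice, beside 0.505% of all genes.

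In size, 18 members were higher and 14 lower in FD mice, with a median log2 fold change of 0.011 against -0.0040 over all genes tested. The median size of the fold change was 0.047 on the log2 scale, and 0.048 over the 14437 genes whose mean reached 1 CPM. The 95% interval lay within 0.25 of 0 on the log2 scale in 23 members and within 0.5 in 29. The exceptions were Grin2b, at 0.16 with an interval of -0.55 to 0.88, Grin2a, at 0.14 with -0.32 to 0.61, and Grin3b, at 0.061 with -0.91 to 1.03. Changes of the size these intervals hold were not detectable for those 3 genes.

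For the AMPA receptor genes the fold changes were -0.036 for Gria1 (interval -0.13 to 0.059), 0.030 for Gria2, 0.00053 for Gria3 and 0.056 for Gria4 on the log2 scale. Gria4, the subunit of fast AMPA receptors in interneurons, had the third smallest p of the members. It ranged from 73.7 to 86.5 CPM in CD mice (median 81.3) and was 86.6, 86.8 and 80.1 CPM in the FD females and 86.1 and 80.9 CPM in the FD males. The groups overlapped, and the lowest CD value was that of female 3.

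Of the kainate receptor genes, Grik5 was 176.4 to 227.4 CPM in CD mice with a median of 195.2, and in FD mice 212.5, 176.4 and 214.5 CPM in females and 181.2 and 155.2 CPM in males. The log2 fold change was -0.082 ± 0.082 (SE), with overlapping groups, and the fifth smallest p of the members. The 4 other kainate receptor genes had values between -0.042 (Grik1) and 0.050 (Grik2). Grin1 was 296.0 to 352.4 CPM in CD mice with a median of 325.4, and in FD mice 338.3, 296.3 and 333.0 CPM in females and 316.7 and 264.1 CPM in males. FD male 2 was the lowest of all mice in both Grin1 and Grik5. The log2 fold change of Grin1 was -0.067 ± 0.065 (SE).

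Cacng2 had the smallest p of all members, 0.229. Its levels were 68.4 to 78.0 CPM in CD mice (median 70.2), and in FD mice 80.4, 71.8 and 78.8 CPM in females and 73.7 and 67.3 CPM in males, so that the lowest and the highest mouse were both FD mice. The log2 fold change was 0.068 ± 0.055 (SE). Cnih2 followed with a log2 fold change of -0.11 ± 0.090 (SE), with 247.4 to 329.7 CPM in CD mice (median 275.0) and with 286.0, 244.8 and 316.7 CPM in FD females and 260.0 and 218.2 CPM in FD males. Here the groups overlapped as well. Of the metabotropic receptors, Grm8 had the largest difference in size, a log2 fold change of -0.11 ± 0.17 (SE) at levels of 5.84 to 12.4 CPM.

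**Figure D4:**
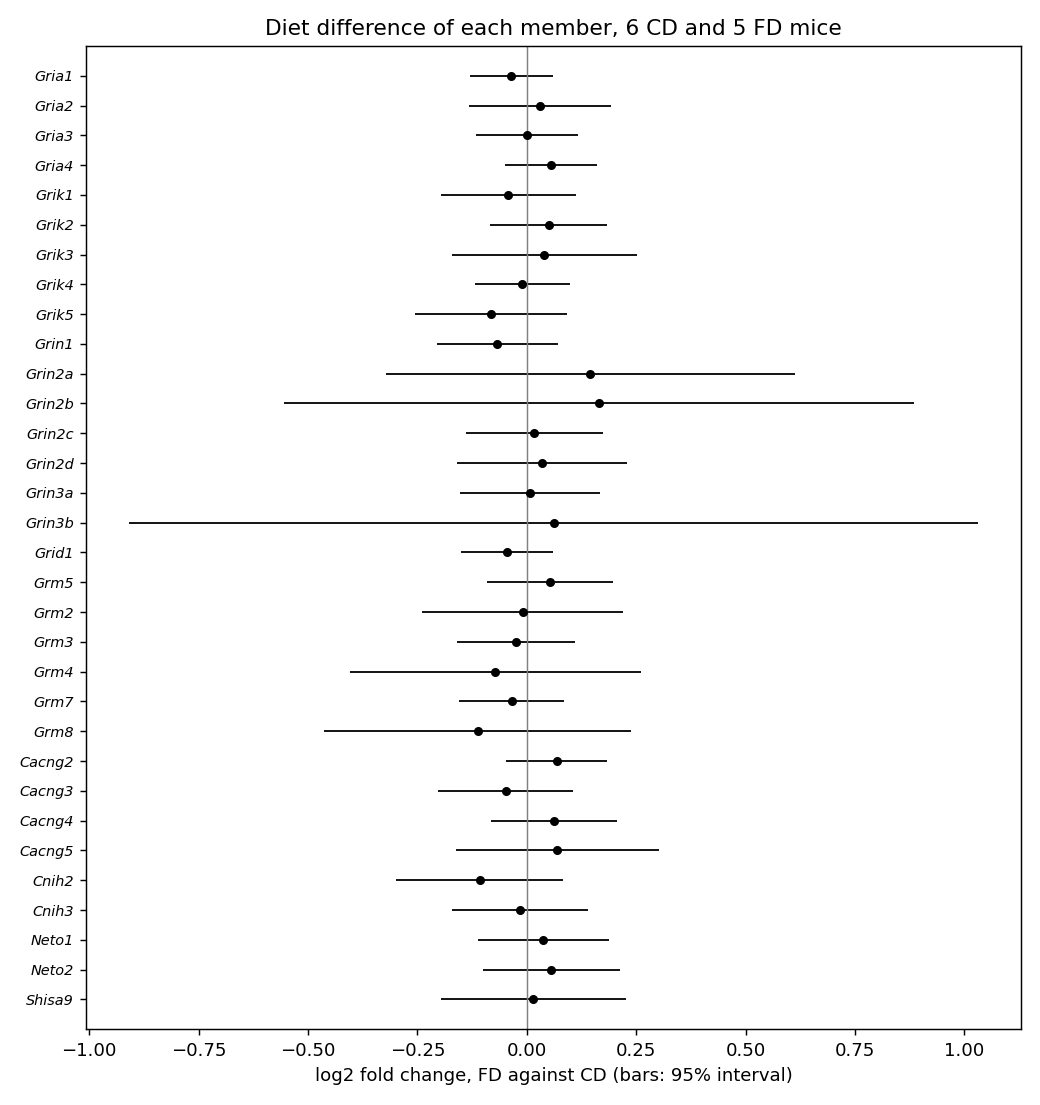
Log2 fold change of FD against CD mice for the 32 members tested (6 CD and 5 FD mice, edgeR), with points for the estimate and bars for the 95% interval. Every interval includes 0, and those of Grin2a, Grin2b and Grin3b are the only ones that reach beyond 0.5 on either side.

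Mice of the same sex and label number were also compared as 5 pairs, with the replicate block in the fit. The labels do not say that mice of the same number belong together, so this pairing is an assumption. No member passed an adjusted p of 0.1 (0 of 32, beside 0.114% of all genes), while 3 members passed an unadjusted p of 0.05, beside 6.76% of all genes. These were Grin2b with a log2 fold change of 0.43 ± 0.12 (SE, adjusted p = 0.374), Grin2a with 0.30 ± 0.099 (adjusted p = 0.492), and Cnih2 with -0.13 ± 0.051 (adjusted p = 0.644). Grin2b was higher in the FD mouse in 3 of 5 pairs and Grin2a in 4 of 5, and the largest step was in female pair 1, from 60.1 to 152.2 CPM of Grin2b. In that pair the CD library was above 15% multiply aligned entries and the FD library below. In the 8 libraries under 15%, without the block, the log2 fold change of FD against CD was -0.023 for Grin2b and -0.015 for Grin2a. This division was chosen after the values of Grin2b were seen and leaves out the 3 mice lowest in both genes. The values in the 8 libraries are therefore a description, and the part of library class in the block result was not tested.

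Females and males were compared with diet in the model. Of the 32 members, 2 were higher in females at an adjusted p under 0.1, beside 3.03% of all genes, and 3 were lower, beside 3.07%. Cnih2 was 244.8 to 329.7 CPM in females (median 301.4) and 247.4, 270.2, 269.2, 260.0 and 218.2 CPM in males, a log2 fold change of 0.24 ± 0.067 (SE, adjusted p = 0.0777). Grik5 rose by 0.20 ± 0.065 (adjusted p = 0.0979). In both genes the sexes overlapped.

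Gria2 was lower in females, with 1091 to 1395 CPM (median 1147) against 1424, 1340, 1319, 1371 and 1382 CPM in males, a log2 fold change of -0.20 ± 0.057 (SE, adjusted p = 0.0840). Grik2, with 74.5 to 91.9 CPM in females (median 81.5) and 94.3, 88.7, 88.2, 92.9 and 92.5 CPM in males, had -0.16 ± 0.050 (adjusted p = 0.0928). In both genes 1 female, FD female 2, reached into the range of the males, and the 5 others were below it. Grin2a had -0.55 ± 0.17 (adjusted p = 0.0951), and Grin2b had -0.81 ± 0.27 and an adjusted p of 0.113.

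All 3 libraries that stood apart are of females. In the 8 other libraries, 3 females and 5 males, 0 of 32 members passed an adjusted p of 0.1, beside 0.065% of all genes, and 2 passed an unadjusted p of 0.05, beside 6.54%. These were Grin2d at 0.24 ± 0.097 (SE, adjusted p = 0.745) and Grin3b at 1.67 ± 0.58 (adjusted p = 0.691) on the log2 scale, the latter on at most 7 counts per mouse. The estimates in the 8 libraries were 0.13 for Cnih2, 0.13 for Grik5, -0.11 for Gria2, -0.11 for Grik2, -0.097 for Grin2a and -0.17 for Grin2b. The division was chosen after the values of Grin2b were seen, and it leaves out the 3 females lowest in Grin2b and Grin2a. The move of Grin2b and Grin2a toward 0 therefore followed from that choice and is a description. The sign was the same in both fits in 24 of 32 members, and 22 were nearer to 0 in the 8 libraries. The count of 5 members also depended on single mice. It was 0 without any one of CD males 1, 2 and 3, CD females 1 and 3, FD females 1 and 3 or FD male 2, 1 without FD male 1, 10 without FD female 2 and 13 without CD female 2. The count of all genes moved as well. It was 18 to 363 in the fits with 0 members. It was 590 of 20391 without FD male 1, 2762 of 20459 without FD female 2 and 3244 of 20496 without CD female 2.

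**Figure D5:**
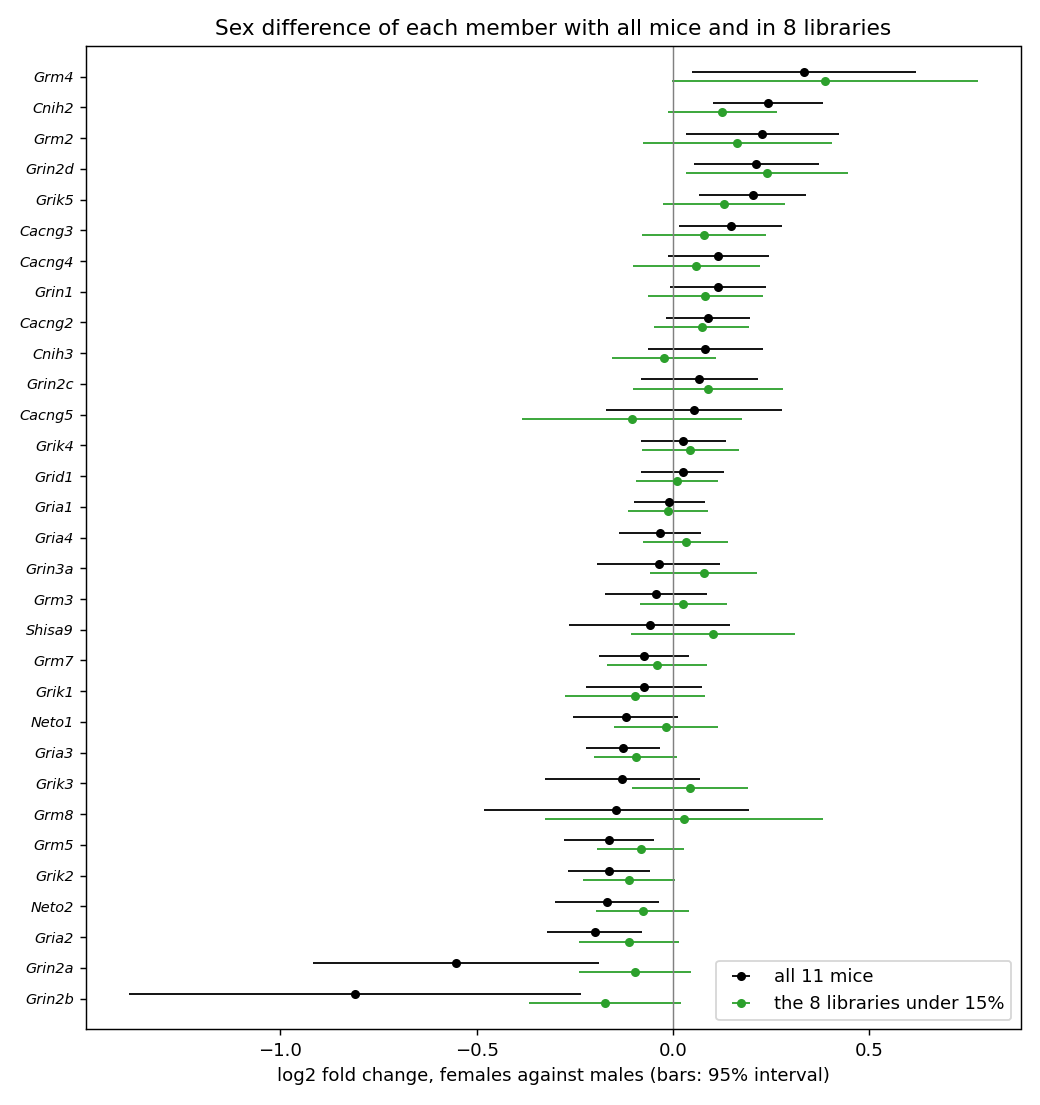
Log2 fold change of females against males with diet in the model for 31 members (Grin3b, with at most 7 counts per mouse, is left out), in all 11 mice (black) and in the 8 libraries under 15% multiply aligned entries (green), with 95% intervals as bars. Grin2b and Grin2a move from -0.81 and -0.55 to -0.17 and -0.097, and the other estimates differ less between the fits. The division was chosen after Grin2b was seen and leaves out the females lowest in Grin2b and Grin2a, so their move is a description.

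The diet difference was then compared between the sexes. No member and no gene passed an adjusted p of 0.1 for the interaction (0 of 32 and 0% of all genes, with 391 genes past an unadjusted p of 0.05). At an unadjusted p under 0.05 there was 1 member, beside 1.9% of all genes: Grm2, a presynaptic group II receptor, with an interaction of 0.40 ± 0.17 (SE, adjusted p = 1). In males Grm2 was 48.1, 45.3 and 48.0 CPM in CD and 43.2 and 34.2 CPM in FD mice, and in females 56.8, 39.5 and 49.1 CPM in CD and 55.8, 49.1 and 54.9 CPM in FD mice. The FD males were below the CD males, while the FD females lay inside the range of the CD females. This call depended on single mice, while the interaction of Grm2 stayed positive without any 1 mouse. It ranged from 0.25 without FD male 2 to 0.59 without FD male 1, 2 fits that leave 1 FD male. It was 0.28 without CD female 2 and 0.36 without FD female 1. In these last fits Grm2 narrowly missed the unadjusted threshold (edgeR quasi-likelihood test, unadjusted p = 0.053 and 0.059, adjusted p of 0.9992 to 1). Without CD female 2, when both remaining CD females are of the libraries that stood apart, Grin2a (0.80) and Grin2b (1.21) passed it instead. In that fit 815 of 20496 genes passed it, and Grin2a and Grin2b each had an adjusted p of 0.9992. The next members by p, Cacng5 and Grik3, had interactions of 0.26 ± 0.21 and 0.22 ± 0.19 (SE, adjusted p = 1). Cacng5, an atypical TARP, was 14.9, 14.2 and 12.2 CPM in CD and 14.1 and 11.5 CPM in FD males, and 14.3, 9.39 and 14.98 CPM in CD and 13.6, 15.2 and 15.9 CPM in FD females. Grik3, whose product forms receptors of low glutamate affinity, was 73.5, 64.9 and 79.4 CPM in CD and 71.3 and 68.2 CPM in FD males, and 66.7, 73.1 and 47.2 CPM in CD and 78.3, 67.7 and 62.0 CPM in FD females. The lowest value was CD female 2 in Cacng5 and CD female 3 in Grik3, and the diets overlapped in both sexes. In the 8 libraries under 15% the only CD female is CD female 2, the lowest female in both Grm2 and Cacng5, so that the interaction there rests on that mouse and its values are not given.

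Ratios of 2 members within a mouse were compared by exact permutation tests over the mice, which do not depend on the scaling of the libraries. The mean log2 ratio of Grin2a to Grin2b was -1.55 ± 0.306 (SD, n = 5) in FD and -1.49 ± 0.344 (SD, n = 6) in CD mice (exact permutation test, two-sided, p = 0.781). That of Gria1 to Gria2 was -0.00014 ± 0.157 in FD and 0.067 ± 0.142 in CD mice (exact permutation test, p = 0.468, adjusted p = 0.701). For Grik2 to Grik5 it was -1.08 ± 0.290 in FD and -1.23 ± 0.246 in CD mice (exact permutation test, p = 0.416, adjusted p = 0.701). The smallest p that this design allows is 0.00217. In the 3 libraries that stood apart, the log2 ratio of Grin2a to Grin2b was between -1.17 and -0.95, against -1.83 to -1.59 in the others. That of Gria1 to Gria2 was between 0.17 and 0.29, against -0.18 to 0.12, and that of Grik2 to Grik5 between -1.61 and -1.39, against -1.39 to -0.75. Because the division was chosen after the values of Grin2b were seen, these ranges are a description.

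Among 44 other genes of the glutamate pathway, 0 passed an adjusted p of 0.1 and 0 an unadjusted p of 0.05 between the diets, beside 0.068% and 2.59% of all genes tested. Of 21 postsynaptic scaffold and signalling genes, 9 had a higher and 12 a lower mean under FD, with a median log2 fold change of -0.026. Camk2b, the beta subunit of CaM kinase II, and the AMPA receptor scaffold gene Grip1 had the smallest p of that group. Camk2b stood at 1483 ± 53.3 CPM (SD, n = 6) in CD and 1399 ± 102.1 CPM (SD, n = 5) in FD mice, and Grip1 at 36.7 ± 3.08 and 38.9 ± 1.44 CPM. Of 9 transporter and synthesis genes 5 were higher and 4 lower, and the vesicular transporter gene Slc17a6, with 18.7 ± 2.68 CPM in CD and 15.5 ± 5.52 CPM in FD mice, had the largest difference at -0.28 ± 0.19 (SE) on the log2 scale. The neuronal uptake transporter gene Slc1a1 had 140.8 ± 7.09 and 134.9 ± 5.59 CPM in CD and FD mice. Of 14 other receptor partners 5 were higher and 9 lower, with Nptx2, a secreted pentraxin that clusters AMPA receptors, at 30.9 ± 3.62 CPM in CD and 27.5 ± 5.22 CPM in FD mice, and Porcn, a part of AMPA receptor complexes, at 85.1 ± 4.54 and 80.8 ± 3.88 CPM.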

How the data were processed

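Hippocampal RNA of 11 mice was sequenced as single-end reads. After trimming and STAR alignment to GRCm38, the authors deposited raw counts of uniquely aligned reads per gene, without normalization. featureCounts is named in the submitters' processing notes, but the summary lines have the form that HTSeq writes. The annotation release and the strand setting are not given in the sources used here. Reads without a gene made up 7.01% to 11.0% of all entries and were left out, like the multiply aligned ones.

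Counts were analysed with edgeR 4.0.16 in R 4.3.3: genes with at least 10 counts in total, TMM normalization, the quasi-likelihood test without covariates, Benjamini-Hochberg adjustment over all genes and a threshold of 0.1. The SE is the log2 fold change divided by the square root of F. CPM values are TMM-normalized, with a prior count of 2 for log2 values. Merged exon lengths came from GENCODE vM21. The members and lists were chosen with earlier results of these data known. The genes described by mouse are those with the smallest p for diet (5), for sex (3) and for the interaction (3), the 5 that vary most between mice beyond counting error, and in each pathway group those with the smallest p (2). A ratio with Cacng8 could not be formed, so that 3 ratios were adjusted together. Alternatives were RLE size factors, DESeq2 1.42.0, other count filters, sex as covariate, the replicate block, each mouse left out and, for levels, the longest protein-coding transcript as length. The 8 libraries under 15%, the library class as covariate and the 10 paired mice without the block were added after seeing the data. The scripts were tested on simulated counts.

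For the replicate block the label numbers were assumed to pair the mice, which the labels do not state. The deviations of same-sex, same-number mice from the group means correlated at 0.31 to 0.54 in the 5 pairs. Mice of the same sex with another number correlated at -0.063 to 0.53, the highest being CD female 1 with FD female 3, both of libraries that stood apart. These ranges overlap, so the correlations do not establish the pairing.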

Additional observations from a re-analysis of the deposited data

Results flagged for a closer look

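A mouse lay far from the rest of its diet group in 3 of the 64 groups of member values examined, and chance gives about 1 in 20. Grm3, a group II receptor of astrocytes and neurons, was 41.0 CPM in CD female 3, the lowest of the CD mice, with the 5 others between 51.0 and 53.4 CPM. Cacng2 was 78.0 CPM in the same mouse, the highest of the CD mice, with the others between 68.4 and 70.5 CPM. Cnih3 was 88.5 CPM in FD female 3, the highest of the FD mice, with the others between 76.3 and 78.1 CPM. Both mice are among the 3 whose libraries held over 15% multiply aligned entries, and the part of this in the values was not tested.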

How the results depend on the processing

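No member passed an adjusted p of 0.1 between the diets in the fits with RLE size factors, with DESeq2, with other count filters, with sex or the library class as covariate, with the replicate block, in the 8 libraries under 15%, or without any single mouse. The count of all genes was 14, and 1 with at least 10 counts in every mouse, 23 with the replicate block, 4 in the 10 paired mice without the block, 4 in the 8 libraries, 22 with the library class as covariate and 3 to 12 without 1 mouse. Members past an unadjusted p of 0.05 were 0, 3 with the replicate block (beside 1367 of 20212 genes) and 0 to 1 without 1 mouse. The 1 was Grm4 without FD female 1, beside 648 of 20277 genes, and Cnih2 without FD female 3, beside 841 of 20384 genes. Other than for the count of members past an unadjusted p of 0.05, the replicate block changed no call on a member. Between the sexes, members past the adjusted threshold were 5, 0 in the 8 libraries and 0 to 13 without 1 mouse, and all genes 1257, 13 in the 8 libraries and 18 to 3244 without 1 mouse. For the interaction, all genes past it were 0 to 1 without 1 mouse, the 1 without CD female 3.

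Fold changes of members kept their sign in 266 of 287 values with no single mouse left out. The sign turned in the 8 libraries, on the log2 scale, for Gria2 (-0.013), Gria3 (-0.016), Grik1 (0.021), Grik3 (-0.019), Grin2a (-0.015), Grin2b (-0.023), Grin3a (-0.020), Grm2 (0.020), Grm4 (0.031), Cacng3 (0.0032), Cnih3 (0.0044), Neto1 (-0.024) and Shisa9 (-0.073). With the library class as covariate it turned for Gria3 (-0.016), Grin3a (-0.014), Grm2 (0.021), Cnih3 (0.0053) and Shisa9 (-0.0019). Grin3b was -0.22 with sex as covariate, -0.27 with the replicate block and -0.18 in the paired mice without it. The difference in the log2 ratio of Grin2a to Grin2b was 0.015 in the 8 libraries and -0.20 to 0.040 without 1 mouse, positive without CD female 3 or FD male 1. The cause was not tested.

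Without 1 mouse, 309 of 352 values kept their sign. Those that did not ranged from -0.087 to 0.0052 for Cacng3, -0.058 to 0.045 for Cnih3, -0.0081 to 0.084 for Gria2, -0.023 to 0.036 for Gria3, -0.068 to 0.0031 for Grik1, -0.041 to 0.095 for Grik3, -0.032 to 0.017 for Grik4, -0.018 to 0.36 for Grin2b, -0.028 to 0.062 for Grin2c, -0.0049 to 0.11 for Grin2d, -0.048 to 0.044 for Grin3a, -0.18 to 0.27 for Grin3b, -0.068 to 0.087 for Grm2, -0.27 to 0.0090 for Grm4, -0.20 to 0.0075 for Grm8, -0.0055 to 0.089 for Neto1, -0.0034 to 0.093 for Neto2 and -0.044 to 0.072 for Shisa9. Depth limited Grin3b most, with at most 7 counts per mouse.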
